A study of Mus musculus with 60 samples.

Results

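Livers of female CC042/GeniUnc mice were compared after 60 and after 40 weeks on a high-fat, high-sucrose (HF/HS) diet. The comparison comprised 10 of the 60 libraries of the series, 5 at each duration, and its members were chosen by the sex, diet and time given in the labels. CC042/GeniUnc is an inbred strain of the Collaborative Cross. The obesogenic diet took its fat from milk, carried added cholesterol and was high in sucrose. Animals 471, 473, 481, 482 and 483 had been on it for 40 weeks, and animals 111, 112, 121, 122 and 281 for 60 weeks. The other groups used here were 5 females each at 40 and 60 weeks of a diet matched in its ingredients with little fat and less sucrose (the control diet), and 5 males each at 40 and 60 weeks of the HF/HS diet. The mice carried no engineered allele per the labels, and for their ages at the start of feeding the sources used here hold no value. The longer-fed animals were also older if feeding began at the same age. The ranges of the animal numbers differed between the durations, so time on the diet, age and cohort cannot be told apart within the HF/HS comparison.

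A diet rich in fat, sucrose and cholesterol is used in mice to model metabolic dysfunction-associated steatotic liver disease, in which fat builds up in hepatocytes and may be followed by inflammation, deposition of extracellular matrix by stellate cells and portal fibroblasts, and growth of small bile ducts. Hepatocytes also answer to pituitary growth hormone, whose receptor acts through STAT5 on genes such as Igf1, Igfals and, in mice, the major urinary proteins and other sex-biased genes. Bulk liver RNA mixes all these cells.

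Ribosome-depleted total RNA was counted per gene, and the 10 libraries held 14359526 to 20942463 counts each. Levels are given as counts scaled by TMM library size (CPM). Albumin (Alb) lay between 10310 and 13520 CPM, as in liver. Xist, transcribed from the inactive X chromosome, lay between 3140 and 4014 CPM, and of the Y-linked genes Kdm5d and Eif2s3y had 0 counts in all 10 libraries, Uty at most 1 and Ddx3y at most 4 per library. Principal component 1 of these libraries (31.3% of the variance) separated the durations. On component 2 (18.4%) the 60-week animals 121 and 281 lay at -24.5 and -26.4, apart from the other 60-week animals. Of the 14 pancreas genes listed, 13 were tested and all 13 had positive fold changes, with 0 called. The trypsin gene Prss2 reached 6.88 CPM in 60-week animal 111 and was at most 0.927 CPM at 40 weeks. Each group's mean pancreas level ran over wide ranges, from -2.56 to -0.33 log2 CPM at 40 weeks and from -2.19 to 2.29 at 60 weeks, and its part in other results was not tested.

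Of 14180 genes tested, 1933 differed between the durations at an adjusted p under 0.05 (edgeR quasi-likelihood test, Benjamini-Hochberg), which is 13.6%. Of them, 957 (6.75% of the genes tested) rose and 976 (6.88%) fell. The rises were larger: 142 genes rose by at least 2-fold and 13 fell by at least 2-fold. The median log2 fold change over all genes was 0.02. Leaving out 1 library gave between 1289 and 1932 calls. In all 10 of these fits fewer genes rose than with every library, from 530 to 792. The number that rose was lowest without animal 471 (530), 281 (552), 111 (569), 481 (599) and 482 (606). With animals 121 and 281 both left out, 503 rose and 764 fell. The split also moved with every library kept. With small non-coding RNA genes removed before scaling 864 rose and 1123 fell, and with no filter on low counts 752 and 869. By contrast, RLE in place of TMM factors gave 1001 rises and 926 falls, and DESeq2 gave 1084 and 1032. The sources used here do not say whether animals of a group were litter or cage mates. The p-values treat each animal as independent, which could not be checked. The spread between animals, and with it each standard error, was estimated within the groups of all 60 libraries, males and control animals included. It was not estimated from the compared libraries alone, a setting in which 3556 of 13642 tested genes were called (1702 rises and 1854 falls). By limma voom 4967 of 14180 were called (2570 rises and 2397 falls). List counts given below for these settings stand beside these larger totals. List counts without 1 library stand beside totals of 1289 to 1932.

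The leading genes named for their rise had to be called, to reach 1 CPM on average and to have groups that did not overlap. C7, a terminal component of complement also made by fibroblasts, was at 2.33, 2.32, 2.97, 4.57 and 3.38 CPM at 40 weeks and at 12.1, 9.43, 10, 14.6 and 9.61 CPM at 60 weeks. Every 60-week animal lay well above every 40-week animal, and the log2 fold change was 1.85 ± 0.37 (SE, n = 5 and 5, edgeR adjusted p = 0.000799). Adam33, a membrane metalloprotease of mesenchymal cells, rose from 0.924 ± 0.33 to 3.06 ± 0.415 CPM (mean ± SD), a log2 change of 1.72. Its adjusted p of 1.57e-05 (edgeR) was the lowest of the comparison. Sema3g, a secreted semaphorin of vascular cells, was at 0.162 to 0.662 CPM at 40 weeks and 0.96 to 2.58 CPM at 60 weeks, with a log2 change of 2.45 ± 0.45. These are low levels, 3 to 50 counts per library. Ly6c1 (log2 change 1.97), Pak6 (1.68), Myo5c (1.66), Scube3 (1.65) and the metalloprotease gene Adamts16 (1.47) also rose, at mean levels under 4 CPM. Ly6c1 has a near-identical neighbour, Ly6c2, so its value is uncertain. All of these calls held without any 1 library.

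**Figure D1:**
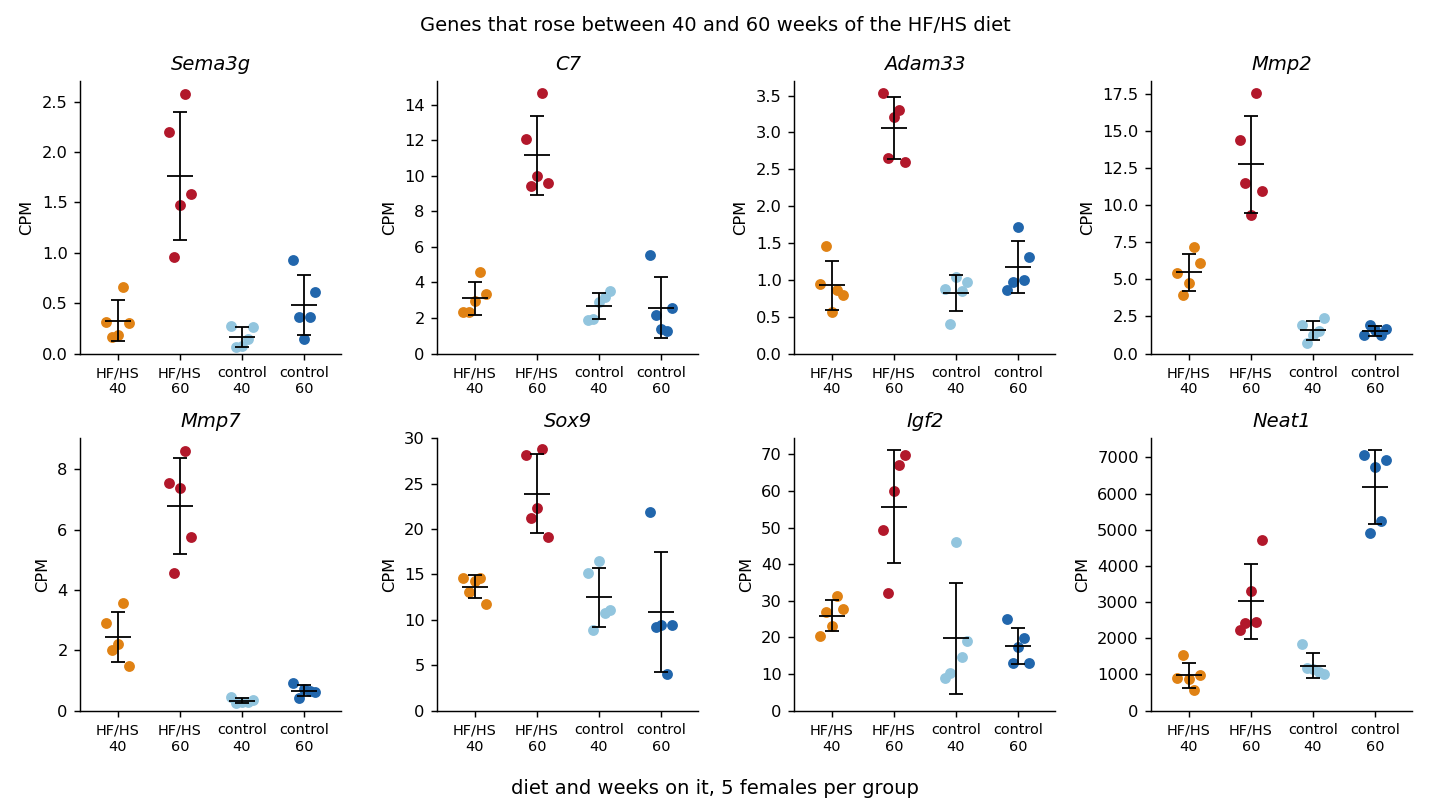
Levels (CPM, linear axes from 0) of 8 genes that rose, in each of 5 females per group; black bars are mean ± SD. In C7, Adam33 and Mmp2 every HF/HS animal at 60 weeks lies above every HF/HS animal at 40 weeks. The naming rule required this of C7 and Adam33. Neat1 is higher at 60 weeks on both diets.

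In the extracellular matrix and fibrosis list, 6 of 33 tested members rose, beside 6.75% of all genes. In it 0 fell, and the median log2 fold change was 0.31. The members that rose were Mmp2, Thbs2, Loxl1 and Col6a3, and, outside the rule for named genes, Bgn and Timp2. Mmp2, a gelatinase that cleaves basement membrane and denatured collagen, was at 5.42, 3.94, 4.75, 7.15 and 6.08 CPM at 40 weeks and at 14.4, 11.5, 9.32, 17.5 and 11.0 CPM at 60 weeks. The groups did not overlap, and its log2 fold change was 1.23 ± 0.27 (edgeR adjusted p = 0.00215). Thbs2, a matrix thrombospondin, rose from 13.02 ± 2.08 to 21.9 ± 4.82 CPM, and Loxl1, an elastin cross-linking enzyme, from 4.68 ± 1.32 to 8.6 ± 2.68 CPM. The collagen VI chain gene Col6a3 rose from 52.2 ± 11.3 to 85.9 ± 22.1 CPM. Animals 111 and 122 had the highest 60-week levels of these 4 genes. Without animal 471, 473 or 122, 3 members of the list rose. Thbs2 lost its call in each of these 3 cases (log2 change 0.61 at the lowest), and Loxl1 (0.72) and Col6a3 (0.59) also without animal 481 or 111. With a per-library offset for exonic gene length 6 members rose. By limma voom 18 did, where 2570 of 14180 genes rose.

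The fibrillar collagens were not called. Col1a1, the main chain of collagen I, was at 47.2, 23.3, 37.6, 59.1 and 37.8 CPM at 40 weeks and at 110, 72.1, 35.7, 130 and 48.3 CPM at 60 weeks. Animals 111 and 122 were high and animals 121 and 281 lay within the 40-week range, and the log2 fold change was 0.95 ± 0.37 (edgeR adjusted p = 0.0781). Without 1 library the log2 change of Col1a1 ran from 0.69 to 1.11. Its adjusted p ran from 0.0413 (without animal 121) to 0.253 (edgeR). Without both 121 and 281, a set chosen after the data had been seen, it was 0.0300 (edgeR). For Col3a1 the log2 fold change was 0.31 ± 0.30 and for Timp1, a metalloprotease inhibitor, 0.12 ± 0.40. Timp1 changed sign without animal 473 (-0.02) or 122 (-0.14).

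Among stellate cell and fibroblast markers, 2 of 15 tested rose, beside 6.75% of all genes, 1 fell and the median was -0.08. Pdgfra, the receptor for platelet-derived growth factor on fibroblasts, was at 23.0 to 34.7 CPM at 40 weeks and 36.5 to 51.0 CPM at 60 weeks, with a log2 change of 0.62 ± 0.17. Cygb, a globin of stellate cells, rose from 16.4 ± 2.32 to 24.99 ± 3.73 CPM, a call lost without animal 471, 473, 481, 111 or 122 (log2 change from 0.52 to 0.64 over the left-out libraries). Colec10, a collectin made by stellate cells, fell by 0.54 on the log2 scale, from 99.1 ± 6.94 to 68.2 ± 11.3 CPM. Without any 1 of those 5 libraries, 1 marker rose. In bulk liver, more or fewer cells of a type cannot be told apart from more or less RNA per cell.

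Of the 8 mesothelial and capsule genes, 7 were tested, 2 rose, beside 6.75% of all genes, and 0 fell, with a median of -0.07. Wt1, a transcription factor of mesothelium, rose by 1.35 ± 0.34 (log2), and Cldn15, a claudin, by 1.23 ± 0.32. The defining mesothelial markers were low in both groups and had negative fold changes, Msln at -0.07 (adjusted p = 0.941, edgeR) and Upk3b at -0.52 (adjusted p = 0.520, edgeR). No listed mesothelial gene was at 0, and the mean level of the list ran from 0.07 to 0.50 log2 CPM at 40 weeks and from 0.21 to 0.69 at 60 weeks.

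Of 15 tested markers of bile duct cells, 5 rose, beside 6.75% of all genes, and 0 fell. All 15 had positive fold changes, with a median log2 fold change of 0.68 against 0.02 over all genes. The mean level of the list was 2.17 to 2.57 log2 CPM at 40 weeks and 2.71 to 3.32 at 60 weeks, so that the groups did not overlap. Sox9, a transcription factor of duct and progenitor cells, was at 14.6, 13.02, 14.3, 14.6 and 11.7 CPM at 40 weeks and at 28.2, 21.2, 22.3, 28.8 and 19.1 CPM at 60 weeks. All 60-week animals were above all 40-week animals (log2 change 0.81 ± 0.22, edgeR adjusted p = 0.0103). Bicc1, an RNA-binding protein of ducts, rose by 0.70 ± 0.19 from 33.8 ± 7.54 CPM. Pkhd1, which encodes fibrocystin of the duct cell cilium and lies outside the naming rule, rose by 0.68, from a median of 63.3 to one of 102 CPM. These 3 genes are the list's most abundant members that rose.

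The chloride channel gene Cftr (log2 change 1.05) and the claudin gene Cldn4 (1.24) had adjusted p-values of 0.0430 and 0.0483 (edgeR). Leaving out 1 library ended the call of Cftr in 9 of 10 cases (all but animal 112), and that of Cldn4 in 8 of 10 (all but 481 and 281), with log2 changes from 0.92 to 1.13 and from 1.02 to 1.49. Accordingly, 3 list members rose without animal 471, 473, 482, 483, 111, 121 or 122, and also 3 by DESeq2 or with no filter on low counts. Fitted with the comparison's own libraries alone 9 members rose, where 1702 of 13642 genes did. By limma voom 11 rose, where 2570 of 14180 genes did. The keratin genes of duct cells were not called: Krt19 had a log2 change of 0.45 and Krt7 of 0.51, and Epcam, a duct adhesion molecule, had 0.56. Spp1, which encodes osteopontin of duct cells and macrophages, was at 46.5 to 58.2 CPM at 40 weeks and 72.3 to 109 CPM at 60 weeks without overlap, and had an adjusted p of 0.0597 (edgeR). Mmp7, a matrilysin of injured bile duct epithelium, lies outside the list. It was at 1.47 to 3.58 CPM at 40 weeks and 4.57 to 8.61 CPM at 60 weeks, a separation that the naming rule required. Its log2 fold change was 1.48 ± 0.34 (edgeR adjusted p = 0.00309).

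Genes of the fetal liver and of liver tumours gave 2 rises and 1 fall among 20 tested, with a median of 0.27. Over all genes 6.75% rose and 6.88% fell. Besides Sox9, the fetal growth factor gene Igf2 rose. Igf2 was at 20.4, 26.9, 23.2, 31.4 and 27.7 CPM at 40 weeks and at 49.4, 32.2, 60.0, 67.2 and 69.9 CPM at 60 weeks. Only animal 112 came close to the 40-week animals, and the log2 fold change was 1.11 ± 0.31 (edgeR adjusted p = 0.0132). Without animals 121 and 281 together the adjusted p was 0.0935. H19, the non-coding neighbour of Igf2 that is expressed from the other parental copy, had a log2 fold change of 1.34 ± 0.51 (edgeR adjusted p = 0.0717) and groups that overlapped. The cell cycle list had 0 of 28 members called, and Mki67, a proliferation marker, had a log2 change of 0.12 ± 0.42, which turned to -0.13 without animal 122.

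Immune genes gave few calls. Of 10 tested B and plasma cell markers, 2 rose (Jchain and Mzb1), beside 6.75% of all genes. In that list 0 fell and 5 had positive fold changes, with a median of -0.02. Jchain, the joining chain of antibodies made by plasma cells, was at 4.83 to 5.83 CPM at 40 weeks and 8.76 to 14.9 CPM at 60 weeks, with a log2 change of 0.98 ± 0.28. Its call was lost without animal 121 (log2 change 0.81, edgeR adjusted p = 0.0535). Of the T and natural killer cell markers, 1 of 11 tested rose (Cd3e, log2 change 1.21), near the 6.75% over all genes. All 11 had positive fold changes, with a median of 0.58. Animal 122 carried the highest 60-week level of Cd3e, at 2.99 CPM, and of the granzyme gene Gzmb, at 2.73 CPM, where the 60-week median of Gzmb was 0.0526 CPM. Without animal 122 the log2 change of Cd3e was 0.83 (edgeR adjusted p = 0.184), and its call was also lost without any 40-week animal or without animal 111, with adjusted p-values of at most 0.0987. Macrophage markers (14 tested), Kupffer cell markers (10), lipid-associated macrophage markers (15), chemokines and cytokines (24) and acute phase genes (25) had 0 members called. Trem2, a receptor of lipid-associated macrophages, was at 2.16 to 6.29 CPM at 40 weeks and 2.32 to 7.68 CPM at 60 weeks, ranges that overlapped almost wholly.

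Neat1, the long non-coding RNA that builds nuclear paraspeckles, was the most abundant of the leading genes. It was at 902, 1527, 883, 584 and 987 CPM at 40 weeks and at 2227, 2427, 3311, 2442 and 4722 CPM at 60 weeks. The groups did not overlap, as the naming rule required (log2 change 1.63 ± 0.32, edgeR adjusted p = 0.000699). In control females the same interval gave a log2 change of 2.31 (edgeR adjusted p = 1.09e-06), and in HF/HS males the value was 2.495. The gene lies at chr19:5824708-5845478 (mm10, minus strand).

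The largest falls were in major urinary protein genes, which encode pheromone carriers made by hepatocytes under growth hormone and which are higher in males. Mup7 was at 3.13, 4.97, 2.68, 0.861 and 1.47 CPM at 40 weeks and at 0.0499, 0.339, 0.316, 0.103 and 0.0565 CPM at 60 weeks. The groups stood apart, as the naming rule required, with 1 to 6 counts per library at 60 weeks. The log2 fold change was -3.90 ± 0.53 (edgeR adjusted p = 1.57e-05). Mup1 had a log2 change of -2.72 ± 0.56, from 6 to 24 counts per library to 0 to 4. Mup genes are near-identical copies, so the value of any single one is uncertain. Of the male-biased list, 4 of 25 tested members fell (Mup7, Mup1, Mup3 and Slco1a1), beside 6.88% of all genes. In it 0 rose, and the median was -0.28. Slco1a1, a hepatocyte uptake carrier for bile acids and steroid conjugates, fell by 0.75 on the log2 scale, from 365 ± 83.7 to 218 ± 82.6 CPM, and animal 121 with 346 CPM lay inside the 40-week range.

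Of the female-biased genes, 3 of 23 tested fell, beside 6.88% of all genes, 0 rose and the median was -0.41. Cux2, a female-specific transcription factor of mouse liver, was at 51.1, 61.2, 61.8, 49.6 and 59.8 CPM at 40 weeks. At 60 weeks it was at 13.9, 18.3, 9.42 and 7.73 CPM in animals 111, 112, 121 and 122, and at 61.5 CPM in animal 281. Thus 4 of 5 animals were far below the 40-week group and the remaining one was level with its top. Over all 5 the log2 change was -1.36 ± 0.42 (edgeR adjusted p = 0.0249). Without animal 281 it was -2.22, and the call was lost without animal 111, 121 or 122, with adjusted p-values of at most 0.0769. The number of female-biased members that fell was 1 without animal 471, 481, 111, 121 or 122 and with clock genes as a covariate. It was 10 with the comparison's own libraries alone, where 1854 of 13642 genes fell. By limma voom it was 12, and 1 rose, where 2397 of 14180 genes fell.

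Of the 14 genes of the growth hormone and insulin-like growth factor list, 2 fell and 0 rose, with a median of -0.14. Over all genes 6.88% fell. Igf1, the growth factor that liver releases in answer to growth hormone, was at 941, 868, 886, 931 and 1096 CPM at 40 weeks and at 573, 659, 700, 598 and 831 CPM at 60 weeks. Every 60-week animal was below every 40-week animal, and the log2 change was -0.49 ± 0.12 (edgeR adjusted p = 0.00533). Igfals, whose product holds IGF1 in a ternary complex in blood, fell from 86.5 ± 9.98 to 55.4 ± 10.4 CPM (log2 change -0.64 ± 0.21, edgeR adjusted p = 0.0300). Its groups did not overlap, but the call was lost without animal 473, 483, 111, 121 or 122, with adjusted p-values of at most 0.0760 and log2 changes from -0.76 to -0.59. In those 5 cases, and with clock genes as a covariate, 1 member of the list fell. With the comparison's own libraries alone 5 fell, where 1854 of 13642 genes did. By limma voom 4 fell, where 2397 of 14180 genes did.

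STAT5 binds the palindromic motif TTCNNNGAA, which reads the same on both strands. Of the 13 list members with an entry in the RefSeq promoter table (GRCm38.p6), 2 held it in the 250 bases before the start, Igfals and Socs3, and 7.02% of all 32851 entries did. Socs3 had a log2 change of 0.52 and was not called. The Igfals window is shown because that gene fell and holds the motif, at 236 bases before the start. It lies at chr17:24877594-24877843 on the plus strand, and capitals mark the match.
Igfals: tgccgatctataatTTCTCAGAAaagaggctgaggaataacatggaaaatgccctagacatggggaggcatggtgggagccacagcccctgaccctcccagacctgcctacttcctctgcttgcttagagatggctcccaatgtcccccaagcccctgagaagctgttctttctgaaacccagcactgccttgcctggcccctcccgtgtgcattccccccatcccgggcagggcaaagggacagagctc
Igf1 had no match in its window, which says only that these letters are absent there. Binding was not measured.

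**Figure D2:**
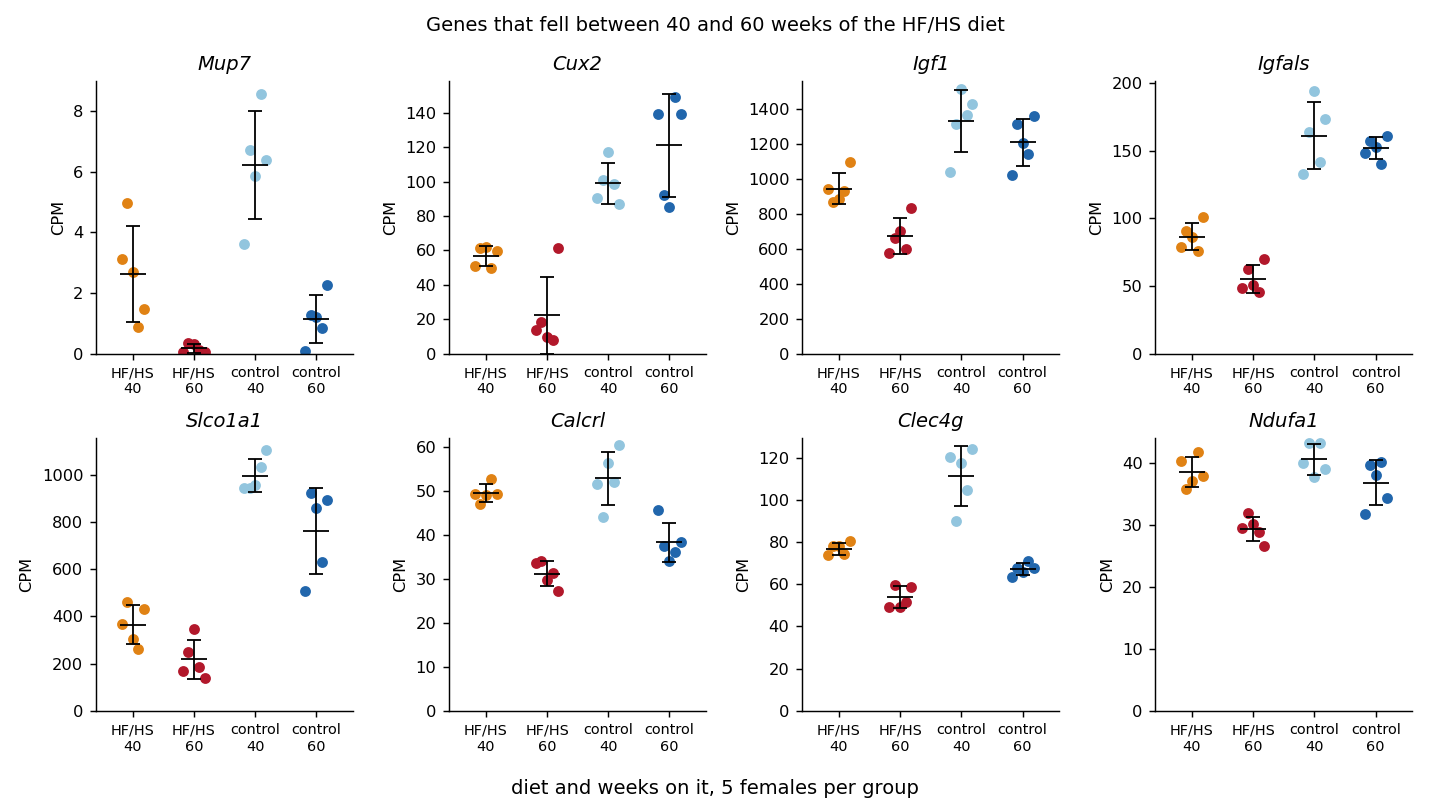
Levels (CPM, linear axes from 0) of 8 genes that fell, in each of 5 females per group; black bars are mean ± SD. The Cux2 panel shows 1 HF/HS animal at 60 weeks (animal 281, 61.5 CPM) level with the 40-week group and the other 4 between 7.73 and 18.3 CPM.

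Small falls were called among genes of mitochondrial energy production. In the list of nuclear-encoded oxidative phosphorylation genes, 12 of 33 tested fell, beside 6.88% of all genes, and 0 rose, with a median log2 change of -0.21. Ndufa1, an accessory subunit of respiratory complex I, was at 40.3, 35.8, 37.0, 41.7 and 37.9 CPM at 40 weeks and at 29.5, 31.9, 30.1, 28.9 and 26.6 CPM at 60 weeks. The groups did not overlap (log2 change -0.39 ± 0.08, edgeR adjusted p = 0.00117). Cox5b, a subunit of complex IV, fell from 83.1 ± 3.2 to 66.2 ± 5.32 CPM. The list's count was 6 without animal 471, 4 without 281 and 1 without 121 and 281 together, at a median of -0.22. In the last setting 3 libraries stand at 60 weeks. With the offset for exonic length it was 5, and 1 member rose. It was 24 with the comparison's own libraries alone, where 1854 of 13642 genes fell. By limma voom it was 22, where 2397 of 14180 genes fell. The list's median exonic length was 2.10 kb against 4.35 kb over all genes tested.

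A family picked after its values had been seen showed the same direction. Of 78 tested genes for mitochondrial ribosomal proteins, which translate the mitochondrial messages, 35 fell, beside 6.88% of all genes, and 0 rose (median -0.22). Without 1 library, 25 to 39 of them fell, and with the length offset 26 did. By limma voom 53 fell, where 2397 of 14180 genes did. Of 38 tested proteasome subunit genes, picked in the same way, 18 fell, beside the same 6.88%, and 0 rose. That count was 11 without animal 471, and 12 with the length offset. In control females, where 8.82% of all genes fell, 22 of the mitochondrial ribosomal genes and 18 of the proteasome genes fell over the same interval. Without 1 control library these counts ran from 16 to 23 and from 10 to 19, the proteasome count being 11 without animal 453 and 10 without animal 31.

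In fatty acid oxidation 3 of 28 tested genes fell and 0 rose (median -0.21), beside 6.88% of all genes that fell. They encode the trifunctional protein of long-chain beta oxidation, Hadha (log2 change -0.27) and Hadhb (-0.37), and the short-chain dehydrogenase Hadh (-0.31). Hadh went from 443, 441, 416, 424 and 393 CPM at 40 weeks to 343, 355, 359, 341 and 304 CPM at 60 weeks, with no overlap. Hadha and Hadhb lost their calls without animal 471 or 281, where 1 member of the list fell, with adjusted p-values from 0.0568 to 0.0662 (edgeR). Without 121 and 281 together 0 members were called. In bile acid synthesis and transport 3 of 22 fell (Slco1a1, Slco1b2 and Akr1d1), beside the same 6.88%. Cyp7a1, which catalyses the limiting step from cholesterol to bile acids, varied widely, from 153 to 709 CPM at 40 weeks and from 89.4 to 221 CPM at 60 weeks, with a log2 change of -1.18 ± 0.56 (edgeR adjusted p = 0.1496). The bile acid count was 2 without animal 473 or 111. The fatty acid and bile acid counts were 13 and 7 with the comparison's own libraries alone, where 1854 of 13642 genes fell. They were 7 and 8 by limma voom, where 2397 of 14180 genes fell.

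Lipid storage and synthesis showed few calls. Cholesterol synthesis and uptake (24 tested, median -0.02), cholesterol efflux (11) and lipid droplet genes (22, median -0.10) had 0 members called in either direction. Scd1, which encodes stearoyl-CoA desaturase, was at 17670 to 19820 CPM at 40 weeks and at 15880 to 20610 CPM at 60 weeks. Its log2 fold change was -0.05 ± 0.17. Cidec, a lipid droplet fusion protein that marks fat-laden hepatocytes, was at 20.5 to 84.2 CPM and 21.2 to 79.2 CPM. Of a panel of 35 disease and metabolism genes, 34 were tested and 0 were called, although its members ran up to a log2 change of 1.34 (H19). The hepatocyte list also had 0 of 15 called, with a median of -0.07.

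In both endothelial lists the calls were falls. Clec4g, a lectin of liver sinusoidal endothelium, was at 73.8, 78.3, 78.0, 74.4 and 80.5 CPM at 40 weeks and at 49.4, 59.9, 49.2, 51.7 and 58.9 CPM at 60 weeks. The groups were far apart relative to their spread (log2 change -0.52 ± 0.10, edgeR adjusted p = 0.000578). In the sinusoidal list 3 of 14 tested fell, beside 6.88% of all genes, and 0 rose. The others that fell were Kdr, the main receptor for vascular endothelial growth factor (-0.31), and Bmp2 (-0.49). The count was 2 without animal 471, 473, 481, 482, 483, 121 or 122 and 1 without 111 or 281. With the comparison's own libraries alone 8 fell and 1 rose, where 1854 of 13642 genes fell. By limma voom 7 fell and 1 rose, where 2397 of 14180 genes fell. Of 10 vascular endothelial markers, 2 fell, beside 6.88% of all genes, 0 rose and 5 had positive fold changes, with a median of 0.06. Those that fell were Plvap, a diaphragm protein of fenestrae, and Aqp1, a water channel. Calcrl, the receptor subunit for calcitonin gene-related peptide and adrenomedullin, outside that list, fell by 0.67 ± 0.10 on the log2 scale, from 49.6 ± 2.03 to 31.2 ± 2.83 CPM (edgeR adjusted p = 5.37e-05). Its highest 60-week value, 34.2 CPM, was below its lowest 40-week value, 47.1 CPM, a separation that the naming rule required. Tmem126b, an assembly factor of complex I (-0.68), the sialyltransferase gene St3gal6 (-0.65) and the cytokine gene Il1a (-0.64) were among the further large falls. Il1a lost its call without animals 121 and 281 together (edgeR adjusted p = 0.0705).

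**Figure D3:**
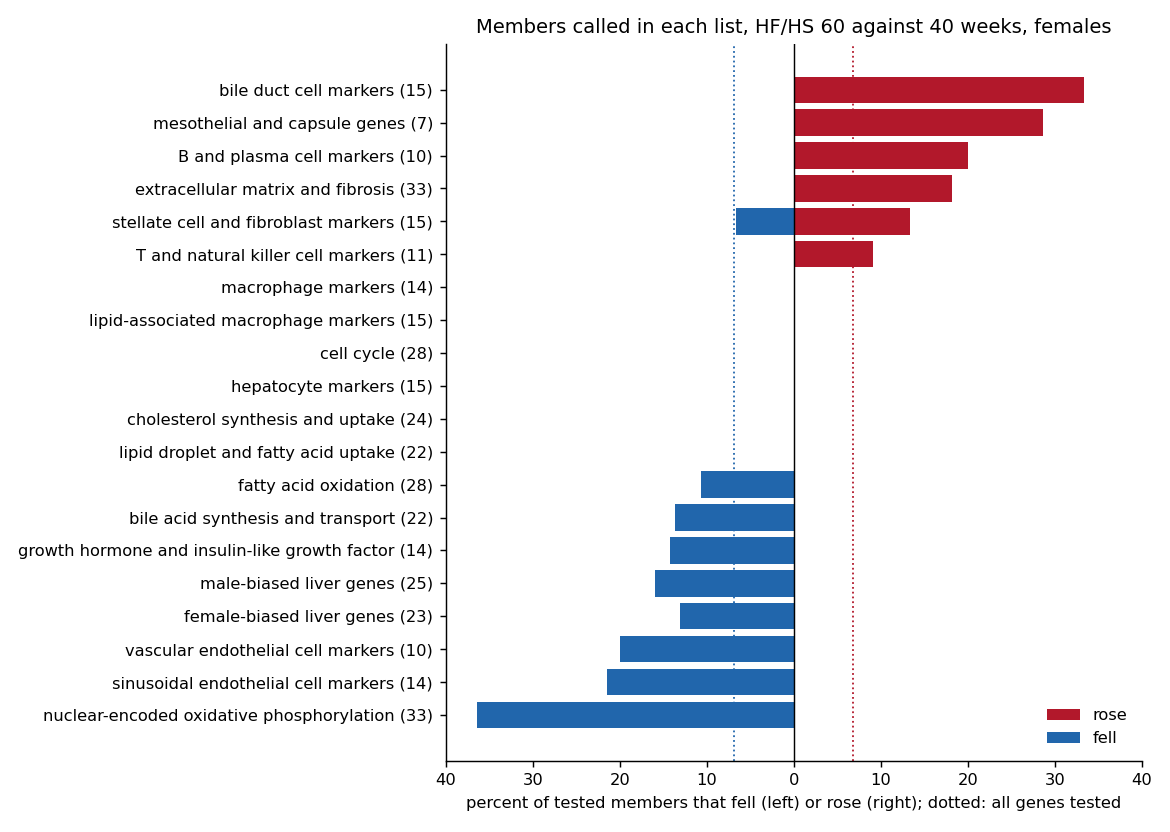
Percent of each list's tested members (number in brackets) that rose (right, red) or fell (left, blue) between 40 and 60 weeks on HF/HS; dotted lines mark the 6.75% and 6.88% of all genes that rose and fell. Bile duct markers extend farthest to the right and oxidative phosphorylation genes farthest to the left.

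The shares of genes called differed with gene length. With the genes in 5 equal classes of summed exonic length, the share of genes that rose was 1.96%, 2.86%, 6.03%, 9.35% and 13.1% from the shortest to the longest, and the share that fell was 9.46%, 7.78%, 7.28%, 5.68% and 4.39%. The median log2 change ran from -0.05 to 0.08 over these classes on the HF/HS diet and from -0.07 to 0.08 on the control diet. Genes that rose had a median exonic length of 6.46 kb, and genes that fell one of 3.67 kb. With a per-library offset for exonic length, 713 genes rose and 909 fell of 14008, and 1439 calls were shared with the fit that has no offset (676 rises and 763 falls). RNA integrity values were not analysed here, so whether RNA quality took part in this pattern was not tested. The matrix list has a median exonic length of 6.09 kb and the bile duct list one of 2.35 kb, and with the offset 6 and 5 of their members rose.

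**Figure D4:**
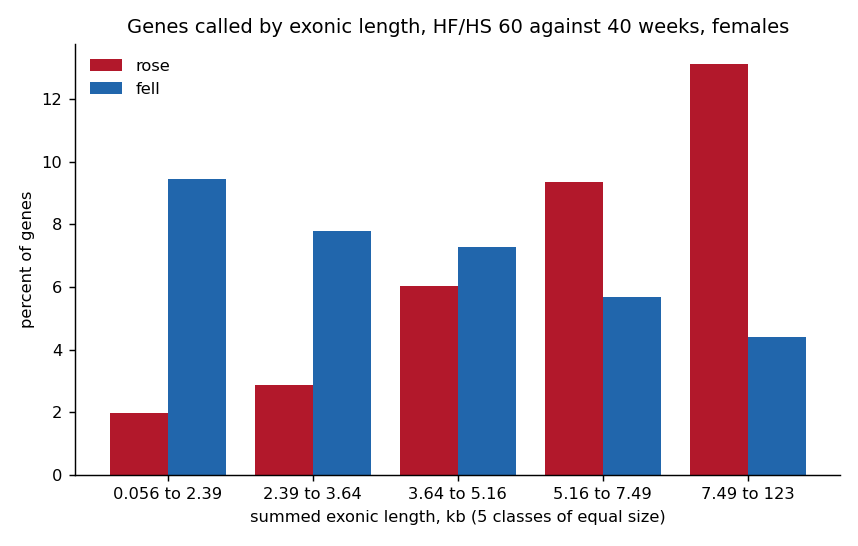
Percent of genes that rose (red) or fell (blue) in each of 5 classes of summed exonic length (kb), HF/HS 60 against 40 weeks in females. The share that rose climbs from 1.96% to 13.1% and the share that fell drops from 9.46% to 4.39%.

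The same interval on the control diet, in females of other libraries, gave 2796 called genes, 19.7% of those tested, of which 1546 (10.9%) rose and 1250 fell. Of the 957 genes that rose on HF/HS, 505 also rose on the control diet, which is 52.8% of the HF/HS list and 32.7% of the control list. Of the 976 that fell, 436 also fell there, 44.7% and 34.9% of the lists. Opposite calls numbered 1 in each direction. The sign was shared by 91.1% of the genes that rose and 92.8% of those that fell, against 66.9% of all genes tested.

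The difference between the HF/HS change and the control change was called for 0 genes (0%) by edgeR's quasi-likelihood test, whose lowest adjusted p was 0.0633. At an unadjusted p under 0.05 there were 1763 genes. DESeq2 called 7 and limma voom with sample weights called 1775. Without control 60-week animal 31 the edgeR count was 462, and it was 2 without control 40-week animal 453 or control 60-week animal 32. The count changed with the control libraries included, and no gene is described as differing between the diets.

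Values of single genes on the 2 diets are set side by side. All were named for their HF/HS change, and the diet difference was called for none of them. C7 had a log2 change of 1.85 on HF/HS and -0.04 on the control diet (difference 1.90, edgeR unadjusted p = 0.00113, not called after adjustment). Mmp2 had 1.23 and -0.02, Sox9 0.81 and -0.20, Igf2 1.11 and -0.16, and Pdgfra 0.62 and -0.15. The bile duct list had 0 members called on the control diet and a median of -0.01. Its mean levels there were 0.76 to 1.10 log2 CPM at 40 weeks and 0.76 to 1.39 at 60 weeks. The matrix list had 3 rises and 1 fall among 33 tested there, beside 10.9% and 8.82% of all genes, and a median of 0.02. Cyp2f2, a cytochrome P450 of periportal hepatocytes, had -0.77 on HF/HS and 0.62 on the control diet, and its HF/HS call was lost without animal 122 or 281 (log2 change -0.64 at the weakest). Other genes had changes of the same sign on both diets: Mup7 had -3.90 and -2.47, Clec4g -0.52 and -0.73, Calcrl -0.67 and -0.46, and Il1a -0.64 and -0.67. The macrophage list, with 0 calls on HF/HS, had 9 of 14 members falling on the control diet, where 8.82% of all genes fell. Without 1 control library the count was 5 to 11, and it was 5 without animal 461, 463, 192 or 32 and 6 without animal 462. The pancreas list had 13 of 13 members falling there (median -5.96) and 0 without control 40-week animal 463. Its mean level was 5.61 log2 CPM in that animal and 1.74 in animal 452, against -2.31 to -0.69 in the other 3 and -2.57 to -0.04 at 60 weeks. Its part in the control-diet values was not tested.

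**Figure D5:**
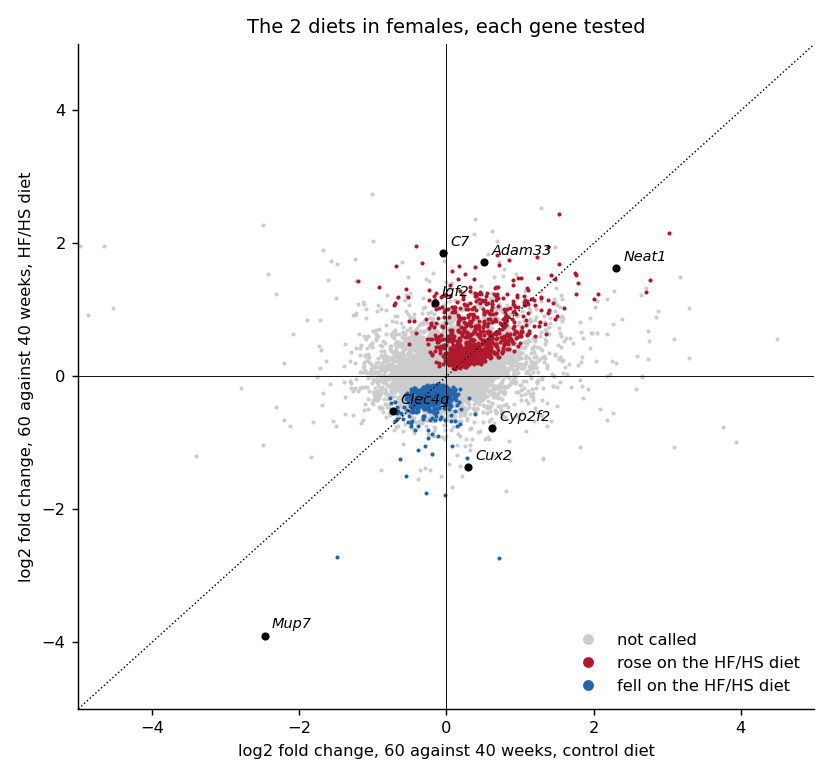
Log2 fold change between 40 and 60 weeks on HF/HS (vertical) against the control diet (horizontal) for each gene tested in females, with genes that rose or fell on HF/HS in red and blue; 23 genes lie outside the plotted range. Neat1 and Mup7 move the same way on both diets, and C7 and Igf2 lie near 0 on the control axis.

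Against males on the HF/HS diet over the same interval, the change differed for 214 genes (1.51%), 79 higher and 135 lower in females. The count was 142 without male 60-week animal 91, 136 without female animal 471 and 126 without female animal 122. With small non-coding RNA genes removed before scaling the split was 70 and 200. The first of them by p-value was the clock gene Arntl, with a log2 change of 0.39 in females and 2.85 in males (difference -2.47 ± 0.32, edgeR adjusted p = 4.31e-06), and its partner gene Npas2 had 0.52 and 3.99. With the first principal component of clock genes as a covariate, 5 genes differed, and the sources used here give no hour of collection. In HF/HS males that component lay at 5.71 to 6.94 at 40 weeks and at -2.26 to -0.60 at 60 weeks. These ranges stand apart, so in males the covariate cannot be separated from duration. Mup7 changed by -3.90 in females and -0.58 in males (difference -3.32, edgeR adjusted p = 0.00309). With the clock covariate its difference was -3.46 ± 0.74 (edgeR adjusted p = 0.0505). Colec10 had -0.54 in females and 0.01 in males (difference -0.56, edgeR adjusted p = 0.0409). That call was lost with the clock covariate (-0.51, adjusted p = 0.282) and without any of 9 of the 20 libraries (males 513, 522, 523 and 91, females 471, 473, 481, 111 and 122), with differences from -0.67 to -0.44 over the left-out libraries and an adjusted p of 0.109 at the highest, without male 91. Of the genes that rose in females 91.5%, and of those that fell 93.4%, had the same sign in males, against 69.2% of all genes tested. The values for males beside the leading female rises were 1.39 for C7, 0.77 for Adam33, 0.44 for Mmp2, 0.86 for Sox9 and 0.93 for Igf2, and the bile duct list had a median of 0.17 in males. Male 60-week animal 91 stood apart, with a mean bile duct level of 1.45 log2 CPM against 2.75 to 3.24 in the other 4. Without it the male values were 1.65 for C7, 0.90 for Adam33, 0.68 for Mmp2, 0.92 for Sox9 and 0.87 for Igf2, and the bile duct median was 0.42.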

How the data were processed

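The authors deposited whole-number counts per gene symbol, 1 column per animal. Per the labels' protocols, frozen liver gave RNA (miRNeasy kits) for stranded libraries after ribosomal depletion. Per the submitters' processing notes, mm10 was the build. The sources used here name no aligner, counter, annotation or strand setting, so overlapping and antisense genes are uncertain. The table had 24982 entries, 4778 without a count. In 26 lines the symbol had become a date (0.201% of counts). These stayed in totals and tests and are not named. Totals over all libraries ran from 10923963 to 20942463.

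All 60 libraries entered 1 edgeR 4.0.16 (R 4.3.3) quasi-likelihood model of 12 group means, with TMM scaling and filterByExpr (minimum count 10, minimum total 15). Calls were made at an adjusted p (Benjamini-Hochberg, 14180 genes) under 0.05. A standard error is the log2 change divided by the root of its F statistic. List levels are mean log2 CPM with a prior count of 2. Pairs of replicates were compared by chi-square, which was at least 4.88 per degree of freedom, so all differed beyond sampling noise. Animal numbers were different in all libraries.

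The genes named are the 12 highest and 12 lowest log2 changes among called genes at 1 CPM or more on average whose groups did not overlap, up to 4 called members of each of 50 lists, and a panel of 35. Members, lists and tests were chosen with earlier results of these data known. Positions and exonic lengths are from GENCODE M21, matched for 14008 genes by symbol.

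Alternatives were RLE factors, DESeq2 1.42.0, limma 3.58.1 voom with quality weights, no filter, removal of small non-coding RNA genes, the comparison's own libraries, a clock covariate, and each library left out. After the data had been seen, leaving out animals 121 and 281 together and an exonic length offset were added. On simulated counts for the HF/HS comparison with 200 of 14180 genes changed, 178 were called, including 10 false ones. Recovery was 67.2% at 1.5-fold, 86.6% at 2-fold and 98.5% at 4-fold.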

Additional observations from a re-analysis of the deposited data

Results flagged for a closer look

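Among 57 genes, 114 groups of 5 HF/HS libraries were searched for a library far from the others, and 2 had one, where chance gives about 1 in 20. Colec10 at 40 weeks was lowest in animal 482, at 87.0 CPM, with the other 4 animals at 100 to 104 CPM. Timp1 at 40 weeks was lowest in animal 473, at 0.972 CPM. The change of Mup7 on HF/HS differed between females and males by -3.32 on the log2 scale (adjusted p = 0.00309, edgeR). Values were lower at 60 weeks in 5 of 5 females, as the naming rule required. With the clock covariate the difference was -3.46 and its adjusted p 0.0505, and without 1 library the adjusted p was at most 0.0108 (edgeR). The change of Colec10 differed between the sexes by -0.56 (adjusted p = 0.0409, edgeR), again with 5 of 5 females below the 40-week range. This call was lost with the clock covariate (adjusted p = 0.282, edgeR) and without any of 9 of the 20 libraries (adjusted p up to 0.109, edgeR).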

How the results depend on the processing

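No paired analysis was possible because the groups compared share no animal numbers. The HF/HS comparison, with 1933 calls, had 4967 with limma voom, 3556 with the comparison's own libraries, 1267 without animals 121 and 281 together, and 1289 to 1932 without 1 library. Counts in the other settings lay within 1.5 times. Of the calls 49.5% were rises, against 39.7% without animals 121 and 281 together. The share was 43.5% with small non-coding RNA genes removed before scaling, 46.4% with no filter, 51.95% with RLE factors and 51.2% with DESeq2. Without 1 library the share of rises ran from 40.0% (without 483) to 44.4% (without 112). The control comparison (2796) had 4412 with limma voom and 2075 to 3155 without 1 library. The diet difference (0) had 1775 with limma voom, 7 with DESeq2, 1 without animals 121 and 281 together, and 0 to 462 without 1 library. The sex difference (214) had 5 with the clock covariate, 980 with its own libraries, 1784 with limma voom, 382 with DESeq2, 385 without animals 121 and 281 together, and 126 to 313 without 1 library. Of 1082 values of 57 named genes under alternatives, 991 kept direction and side of the threshold, 74 lost and 9 gained the call, and 8 changed sign, all of uncalled genes. Without 1 library Timp1 ran from -0.14 to 0.30, Mki67 from -0.13 to 0.27 and Cidec from -0.48 to 0.084. Scd1 was 0.0092 with limma voom and 0.00067 without 121 and 281, and Cidec 0.045 with limma voom and 0.24 without 121 and 281. The causes were not tested. Genes at a few counts per library, such as Mup1, are limited by depth.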
